A study of Mus musculus with 9 samples.

Results

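The integrated stress response and amino acid genes described here are 35 mouse genes chosen by symbol. They comprise 7 transcription factors and regulators, 5 stress response effectors, 6 enzymes of serine synthesis and one-carbon metabolism, 2 enzymes that make asparagine and cysteine, 5 amino acid transporters and 10 cytosolic tRNA synthetases. All 35 were found among the 52609 genes measured, and all 35 passed the filter on low counts.

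Transcript levels were measured by stranded mRNA sequencing in 4 lines of mouse epiblast stem cells, cells derived from dissected epiblast and grown on inactivated mouse embryonic fibroblasts (feeder cells). The medium of all 4 lines held 20 ng/mL Activin A and 10 ng/mL FGF2, in a serum replacement medium to which non-essential amino acids, GlutaMAX and β-mercaptoethanol were added. The groups were an unmodified control line (control, 2 libraries), a line with a knockout of Dkk1, a secreted Wnt antagonist (Dkk1_KO, 3 libraries), a line kept in IWP2 at 5 µM, an inhibitor of the Porcupine enzyme needed for Wnt secretion (IWP2, 2 libraries), and a line from which IWP2 was withdrawn after derivation (IWP2_removed, 2 libraries). SB431542 is also named in the treatment protocol, but in the labels of none of these groups. Each group is 1 line, and the labels do not say whether its libraries came from separate cultures, so p-values measure only the spread between these libraries. The names of the deposited tables carry a letter that no label explains: in control, IWP2 and IWP2_removed replicate 1 is letter B and replicate 2 is letter C, and in Dkk1_KO replicates 1, 2 and 3 are letters A, B and C.

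Estimated reads per library ran from 10849490 to 17892751. Dkk1 itself stood at 6.77 and 8.95 CPM (reads relative to a common library total, after TMM scaling of library sizes) in the 2 control libraries and at 0.701 to 1.13 CPM in the 3 Dkk1_KO libraries. It stood at 2.89 and 0.348 CPM in the B and C libraries of IWP2, the latter (6 reads) below all 3 Dkk1_KO libraries, and at 3.45 and 5.84 CPM in IWP2_removed. The summed level of 10 trophoblast markers was 1986 to 1991 CPM in Dkk1_KO against 26.8 to 116.5 CPM in the other 6 libraries, where Rhox9 had no read. Of 10 epiblast markers 6 were lower and 3 higher in Dkk1_KO than in control, and their sum was 791.5 to 835.3 CPM against 1613 to 3442 CPM elsewhere. Among them Nanog and Tdgf1 were close to 0 in Dkk1_KO, at 1.84 to 2.17 and 0.140 to 0.495 CPM. Dnmt3b (449.7 to 469.2 CPM), Utf1 (153.7 to 174.9 CPM) and Pou3f1 (79.4 to 86.8 CPM) instead lay above both control libraries. Sox2 (93.2 to 101.9 CPM) lay between the control libraries, so neither direction stands for the whole list. Replicates of Dkk1_KO lay much closer together than those of the other lines, with a median SD of 0.0577 on the log2 scale over genes against 0.161 to 0.292.

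The integrated stress response lowers general protein synthesis when one of several kinases phosphorylates the initiation factor eIF2, for example during amino acid shortage, protein misfolding in the endoplasmic reticulum, viral infection or haem deficiency. Translation of the transcription factor Atf4 rises under these conditions, and Atf4, often paired with a C/EBP family protein, activates genes for amino acid synthesis and uptake and for the charging of tRNAs. Atf4 activity is therefore set largely at the level of its translation, which RNA levels do not measure.

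The DNA element bound by such Atf4 and C/EBP pairs has TGATGNAA as its core, and promoters that carried these letters are shown. The members were chosen as genes of this pathway, so their share of matches is no independent link between them. Promoter windows from RefSeq (GRCm38.p6, 250 bases before to 50 bases after a start site) were matched for 28 of the 35 members. The core was found on either strand in 11 of the 28 (39.3%, 95% exact Clopper-Pearson interval 21.5 to 59.4%), against 4.51% of all 27025 genes with a window. The longer form TGATGNAAT, which is contained in these matches, was present in 4 of the 28 and in 1.08% of all genes. The following stretches, for the 8 members with a match that had the highest mean level, are on the strand of the gene, with the core or its reverse complement in capitals.
Asns, chr6:7693214-7693243, minus strand: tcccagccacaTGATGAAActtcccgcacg
Gars, chr6:55037931-55038000, plus strand: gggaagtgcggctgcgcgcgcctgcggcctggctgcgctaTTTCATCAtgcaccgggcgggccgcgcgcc
Iars, chr13:49682126-49682155, plus strand: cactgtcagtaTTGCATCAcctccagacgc
Yars, chr4:129189895-129189924, plus strand: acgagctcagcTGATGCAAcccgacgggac
Aars, chr8:111033840-111033869, plus strand: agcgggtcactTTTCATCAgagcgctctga
Nupr1, chr7:126625562-126625591, minus strand: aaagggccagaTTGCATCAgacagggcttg
Atf3, chr1:191183396-191183483, minus strand: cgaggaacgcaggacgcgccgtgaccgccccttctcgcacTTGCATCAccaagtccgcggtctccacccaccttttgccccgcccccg
Chac1, chr2:119351009-119351096, plus strand: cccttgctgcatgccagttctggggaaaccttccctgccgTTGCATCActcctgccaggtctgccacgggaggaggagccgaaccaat
Windows of Trib3, Vldlr and Slc7a11 held a match as well. Such a match describes the letters in the window and no more. The difference between letters described next was called for 6 of the 11 members with a match, for 12 of the 17 without one and for 5 of the 7 without a window.

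Levels can be compared between members only per length of transcript, as TPM, a level scaled for transcript length and library total. Over the 9 libraries the highest mean TPM belonged to Slc3a2 (639.9, range 382.0 to 964.2), the heavy chain shared by several amino acid transporters. It was followed by Asns (225.3), Phgdh (194.6), Psat1 (155.5) and Atf4 (140.8). The lowest means were those of Slc7a11 (2.79), Aldh1l2 (4.57) and Cebpb (4.88). The annotated protein-coding transcripts held a median of 96.9% of the members' reads and 81.7% of their TPM. They held less than 60% of the reads for 1 member (Nupr1, 41.1%) and less than 60% of the TPM for 7 (Aars, Iars, Mars1, Psph, Slc7a3, Yars and Nupr1). In TPM of coding transcripts alone the order after Slc3a2 (637.6) was Phgdh (194.5), Asns (148.5), Atf4 (137.3) and Psat1 (117.4). Slc3a2 had 36680 estimated reads over the 9 libraries, fewer than Nars (48726), whose mean TPM was 92.4. The first rank of Slc3a2 thus depends on the lengths of its annotated transcripts, of which Slc3a2-204 held 53.3% of its TPM.

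The difference that most members shared ran between the letters. In control, IWP2 and IWP2_removed the letter C library held more RNA of nearly every member than the letter B library of the same line. With line as a block over these 6 libraries, 23 of the 35 members were higher in letter C and none was lower, against 3.10% of all 17214 genes tested called higher and 4.56% called lower (edgeR's quasi-likelihood test, Benjamini-Hochberg adjusted p below 0.05 over all genes). The median log2 difference of the members was 1.13, against -0.001 for all genes. The members and the other lists were chosen with earlier results of these data known. Their contrast with all genes is therefore not independent of these data. Letter C lay above letter B in 3 of 3 lines for 33 of the 35 members, which holds for 27.1% of all genes, and the lowest C library lay above the highest B library for 27 of the 35, which holds for 14.8% of all genes. Summed over the 35 members, the level was 3621 to 4609 CPM in the 3 B libraries and 7646 to 12752 CPM in the 3 C libraries. In bulk RNA, fewer cells of a type and less RNA per cell cannot be told apart.

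**Figure D1:**
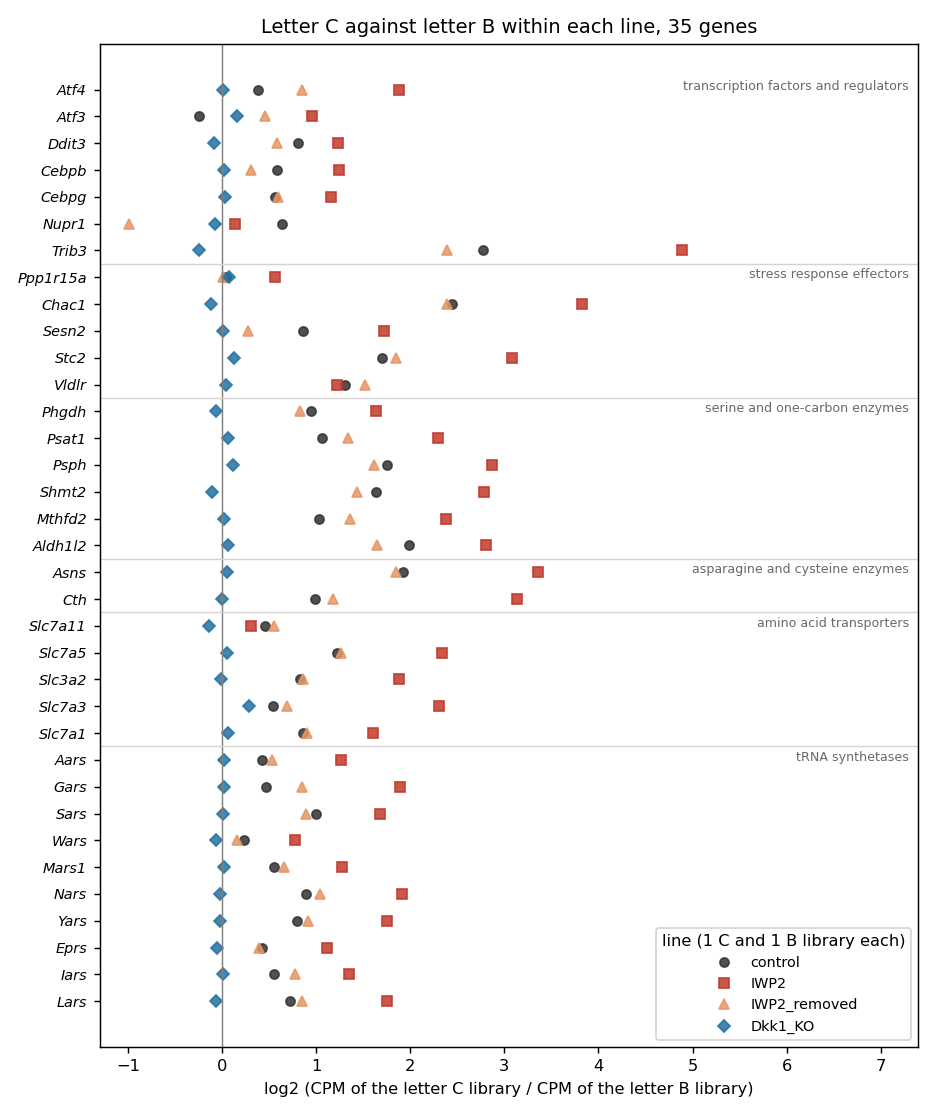
Log2 of the CPM in the letter C library over that in the letter B library of the same line (x axis), for each of the 35 members (y axis, grouped by role); circles are control, squares IWP2, triangles IWP2_removed and diamonds Dkk1_KO, with 1 library per letter and line. Points of the 3 lines lie to the right of 0 for 33 members and reach furthest in IWP2 for 32, while those of Dkk1_KO lie close to 0.

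The size of this difference varied between lines. The median ratio of C to B over the members was 1.78 in control (range 0.842 to 6.82), 3.36 in IWP2 (range 1.10 to 29.5) and 1.81 in IWP2_removed (range 0.505 to 5.25). The ratio was largest in IWP2 for 32 of the 35 members, with 1 library per letter and line and hence no test of the difference between lines. Over all genes with at least 5 CPM, too, the IWP2 libraries lay furthest apart. Their median SD was 0.292 on the log2 scale, against 0.170 in control and 0.161 in IWP2_removed. In Dkk1_KO, by contrast, the median ratio was 1.01 (range 0.842 to 1.22), with C above B for 22 of the 35. An edgeR test of whether the difference between letters was larger in the 3 lines than in Dkk1_KO, chosen after the values were seen, called none of 17970 genes (0% in either direction), the members included. In that test all 35 members had a positive difference, with a median of 1.17 on the log2 scale, and 21 had an unadjusted p below 0.05. Of all 17970 genes 9041 had a positive difference, and 439 were higher and 715 lower at that unadjusted threshold. When the B and C libraries of Dkk1_KO entered as another line, no gene at all was called for the letter by edgeR. On log2(TPM + 1) with limma-trend, 9 of the 35 members were higher in letter C.

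**Figure D2:**
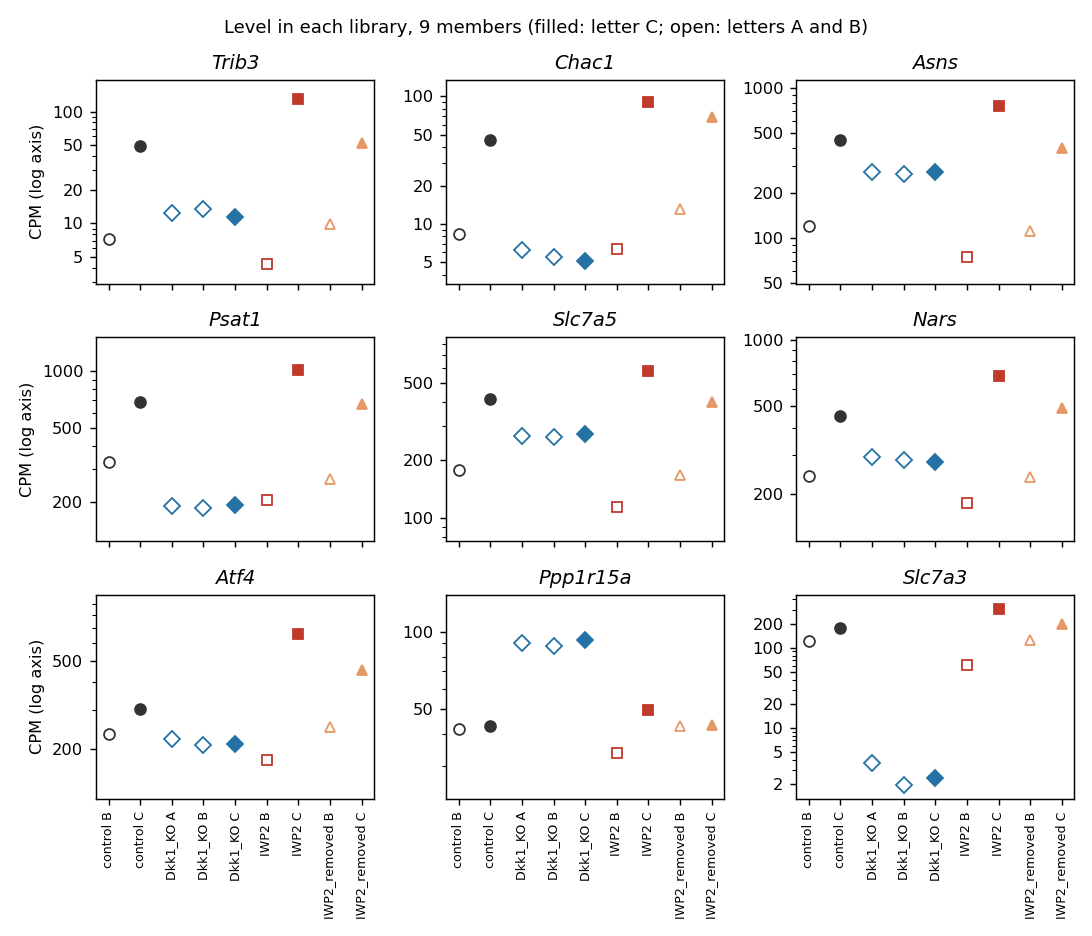
CPM on a log axis in each of the 9 libraries for 9 members, with line and letter on the x axis; filled symbols are letter C and open symbols letters A and B. Trib3, Chac1, Asns, Psat1, Slc7a5 and Nars show the split between letters outside Dkk1_KO, Atf4 shows a smaller one, and Ppp1r15a and Slc7a3 differ between Dkk1_KO and the other lines.

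Among the 7 transcription factors and regulators 3 were higher in letter C (Trib3, Cebpg and Ddit3), and their median log2 difference was 0.77. Trib3, a pseudokinase that restrains Atf4 and Ddit3, stood at 7.21 and 49.2 CPM in the B and C libraries of control, 4.34 and 128.1 CPM in those of IWP2, 9.92 and 52.0 CPM in those of IWP2_removed, and 12.3, 13.4 and 11.3 CPM in Dkk1_KO. Every C library outside Dkk1_KO was thus above every B library and above all 3 Dkk1_KO libraries, and the log2 difference between letters was 3.31 ± 0.45 (SE, adjusted p = 0.0105 by edgeR). Cebpg, a dimer partner of Atf4, measured 36.5 and 53.9 CPM in control, 35.5 and 79.2 CPM in IWP2 and 38.0 and 57.4 CPM in IWP2_removed, with 28.7, 31.1 and 31.7 CPM in Dkk1_KO. Ddit3, also known as CHOP, a factor linked to cell death under prolonged stress, measured 7.84 and 13.7 CPM in control, 9.12 and 21.4 CPM in IWP2 and 10.4 and 15.6 CPM in IWP2_removed, with 13.3, 12.7 and 12.0 CPM in Dkk1_KO. The B and C libraries did not overlap for either gene. With 1 library left out in turn, the call of Ddit3 was lost in 4 of 6 fits (without either library of control or of IWP2_removed) and that of Cebpg in 3 of 6 (without control replicate 2 or either library of IWP2_removed), while that of Trib3 was lost in none. With line as a block, a library left alone in its line adds nothing to the difference between letters. Leaving out the B or the C library of a line is therefore nearly the same check. The 3′ end of Ddit3 overlaps that of Mars1 on the other strand, and the use of strand in counting is not stated, so reads at that end are uncertain for both.

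Atf4 itself was not called for the letter by edgeR (log2 difference 1.03 ± 0.27, SE, adjusted p = 0.059), while DESeq2 called it (adjusted p = 0.000369). Its levels, given for its central place in the pathway and chosen after they were seen, were 233.7 and 303.5 CPM in the B and C libraries of control, 180.1 and 661.5 CPM in those of IWP2, 252.5 and 454.3 CPM in those of IWP2_removed and 223.4, 210.4 and 212.5 CPM in Dkk1_KO. The C libraries were the highest 3 of the 9. Cebpb, an Atf4 partner, had a difference of 0.71 (adjusted p = 0.113). Atf3, a stress-induced repressor and activator, and Nupr1, a small chromatin protein, were the only members for which C did not exceed B in every line, and their differences were 0.39 and -0.07.

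Of the 5 effectors 3 were higher in letter C, with a median log2 difference of 1.35 over the list. Chac1, an enzyme that degrades glutathione, measured 8.28 and 45.1 CPM in the B and C libraries of control, 6.34 and 89.8 CPM in those of IWP2, 13.2 and 69.3 CPM in those of IWP2_removed and 6.31, 5.54 and 5.09 CPM in Dkk1_KO. For Stc2, a secreted glycoprotein, the values were 19.9 and 64.7 CPM, 10.5 and 88.5 CPM, and 19.3 and 69.4 CPM in the same order, with 16.5, 15.7 and 17.2 CPM in Dkk1_KO. For Vldlr, a lipoprotein receptor, they were 35.1 and 87.0 CPM, 32.4 and 75.8 CPM, and 25.7 and 73.7 CPM, with 25.4, 23.8 and 24.6 CPM in Dkk1_KO. All 3 genes had their B and C libraries apart, and their log2 differences were 2.88 ± 0.29 for Chac1 (adjusted p = 0.00532), 2.20 ± 0.27 for Stc2 (adjusted p = 0.00704) and 1.35 ± 0.13 for Vldlr (adjusted p = 0.00459, all SE and edgeR). The ratio of C to B for Vldlr was 2.48 in control, 2.87 in IWP2_removed and 2.34 in IWP2, and Vldlr, Slc7a11 and Nupr1 were the 3 members for which IWP2 did not have the largest ratio. Sesn2, a leucine sensor that restrains mTORC1, had a difference of 0.95 (adjusted p = 0.0631 by edgeR, 0.00146 by DESeq2). Ppp1r15a, the subunit that directs a phosphatase to eIF2, had one of 0.20 (adjusted p = 0.423), with 41.9 and 43.0 CPM in control, 33.6 and 49.4 CPM in IWP2 and 43.1 and 43.3 CPM in IWP2_removed.

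All 6 enzymes of the serine and one-carbon group were higher in letter C, with a median log2 difference of 1.77. Phgdh, Psat1 and Psph carry out the successive steps from glycolysis to serine. Psat1 stood at 326.9 and 683.2 CPM in the B and C libraries of control, 206.4 and 1014 CPM in those of IWP2, 264.5 and 666.3 CPM in those of IWP2_removed and 189.5, 185.2 and 193.9 CPM in Dkk1_KO. Psph stood at 26.4 and 89.1 CPM, 20.8 and 151.5 CPM, and 29.2 and 89.2 CPM in the same order, with 17.3, 16.9 and 18.3 CPM in Dkk1_KO. The C libraries of both genes were above all others, and Dkk1_KO lay below even the B libraries. Phgdh, the first enzyme, had a log2 difference of 1.13 ± 0.18 (SE, adjusted p = 0.0176 by edgeR) and Psph, the last, one of 2.07 ± 0.25 (adjusted p = 0.00682).

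Mitochondrial enzymes of the folate cycle moved in the same direction. Shmt2, which splits serine to load folate with a one-carbon unit, stood at 139.0 and 432.0 CPM in control, 112.3 and 775.2 CPM in IWP2, 156.3 and 421.2 CPM in IWP2_removed and 116.0, 122.6 and 114.1 CPM in Dkk1_KO. Aldh1l2, which oxidises 10-formyl-tetrahydrofolate to make NADPH, stood at 22.6 and 89.8 CPM, 14.3 and 99.5 CPM, and 15.6 and 48.9 CPM in the same order, with 3.22, 3.11 and 3.25 CPM in Dkk1_KO. Their differences were 1.94 ± 0.26 (SE, adjusted p = 0.0105 by edgeR) and 2.14 ± 0.22 (adjusted p = 0.00576). Mthfd2, between them in the pathway, had one of 1.59 ± 0.25 (adjusted p = 0.0152).

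Both enzymes that make asparagine or cysteine were higher in letter C. Asns, asparagine synthetase and a widely used readout of Atf4, stood at 119.2 and 451.4 CPM in the B and C libraries of control, 73.9 and 757.7 CPM in those of IWP2, 110.3 and 397.0 CPM in those of IWP2_removed and 273.3, 266.9 and 276.0 CPM in Dkk1_KO. Its 3 Dkk1_KO libraries lay in the gap between the B and the C libraries, and its difference was 2.36 ± 0.30 (SE, adjusted p = 0.00819 by edgeR). Cth, which releases cysteine from cystathionine, stood at 36.5 and 72.2 CPM in control, 19.0 and 167.5 CPM in IWP2, 16.8 and 37.9 CPM in IWP2_removed and 9.88, 11.1 and 11.1 CPM in Dkk1_KO. The C library of IWP2_removed (37.9 CPM) was only just above the B library of control (36.5 CPM), and the difference was 1.75 ± 0.40 (SE, adjusted p = 0.0415 by edgeR, 0.0548 by DESeq2).

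Of the 5 transporters 3 were higher in letter C, with a median log2 difference of 1.16. Slc7a5, the light chain of a carrier for large neutral amino acids, stood at 176.8 and 413.6 CPM in control, 113.9 and 577.5 CPM in IWP2, 166.8 and 400.7 CPM in IWP2_removed and 265.4, 264.1 and 273.9 CPM in Dkk1_KO. Slc7a1, a carrier of cationic amino acids, stood at 81.3 and 147.1 CPM, 64.5 and 195.9 CPM, and 78.3 and 146.6 CPM in the same order, with 83.7, 86.4 and 90.2 CPM in Dkk1_KO. Neither gene had overlapping B and C libraries, and the differences were 1.60 ± 0.23 for Slc7a5 (SE, adjusted p = 0.0126 by edgeR) and 1.12 ± 0.17 for Slc7a1 (adjusted p = 0.0147). Slc3a2, the heavy chain that pairs with Slc7a5 and Slc7a11, had a difference of 1.19 (adjusted p = 0.0251). Slc7a3 and Slc7a11 were not called (adjusted p = 0.0702 and 0.0754).

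Of the 10 tRNA synthetases 6 were higher in letter C (Sars, Nars, Yars, Lars, Iars and Mars1), and the median log2 difference was 0.98. These enzymes join an amino acid to its tRNA, here serine, asparagine, tyrosine, leucine, isoleucine and methionine. Sars stood at 179.1 and 358.9 CPM in control, 150.2 and 479.5 CPM in IWP2, 239.6 and 445.8 CPM in IWP2_removed and 205.9, 205.1 and 206.3 CPM in Dkk1_KO. Nars stood at 241.8 and 449.6 CPM, 182.7 and 687.3 CPM, and 238.4 and 489.7 CPM in the same order, with 294.6, 285.2 and 280.1 CPM in Dkk1_KO. Both had their Dkk1_KO libraries within the range of the other 6, and their differences were 1.19 ± 0.18 for Sars (SE, adjusted p = 0.0140 by edgeR) and 1.28 ± 0.21 for Nars (adjusted p = 0.0185). Yars stood at 125.5 and 217.1 CPM in control, 105.1 and 353.5 CPM in IWP2, 130.8 and 246.5 CPM in IWP2_removed and 152.6, 147.1 and 144.7 CPM in Dkk1_KO. Lars stood at 239.9 and 395.1 CPM, 177.9 and 600.1 CPM, and 213.1 and 384.9 CPM in the same order, with 202.6, 203.0 and 193.5 CPM in Dkk1_KO. In Yars as in Lars every C library outside Dkk1_KO was above every other library. The 4 synthetases that edgeR did not call, Gars, Aars, Eprs and Wars, had differences of 1.06, 0.74, 0.64 and 0.39 (adjusted p = 0.0513, 0.0546, 0.0709 and 0.151), and DESeq2 called 3 of them, all but Wars. The edgeR calls of Iars, Mars1 and Lars were lost without the letter B library of IWP2_removed. Leaving out its letter C library, which is nearly the same check, lost those of Iars and Mars1.

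Other lists show which neighbouring pathways shared the difference between letters. Of 22 further Atf4 target genes 15 were higher in letter C and none lower, with a median log2 difference of 1.18. Ddit4, an inhibitor of mTORC1, was one of them at 2.02 ± 0.14 (SE, adjusted p = 0.00250 by edgeR), as were Vegfa, an angiogenic factor, at 1.79 ± 0.13 and Pycr1, the last enzyme of proline synthesis, at 2.11 ± 0.20. Of 19 endoplasmic reticulum chaperone and Xbp1 or Atf6 genes 1 was higher (Herpud1, which acts in protein disposal, 0.96 ± 0.21) and none lower, with a median of -0.13. Their summed level was 3551 to 4293 CPM in the B libraries and 3365 to 3563 CPM in the C libraries. Of 15 genes for eIF2, its kinases, its exchange factor and related regulators 1 was higher (Eif2s2, an eIF2 subunit, 0.97 ± 0.23) and 1 lower (Eif2ak2, the kinase PKR, -0.83 ± 0.18). None of 8 other cytosolic tRNA synthetases was called in the edgeR test (1 by DESeq2, 0 by limma-trend), although all 8 had positive differences and 3 an unadjusted p below 0.05, and their median was 0.28. Of 10 Nrf2 target genes, Slc7a11 among them, none was called by edgeR, DESeq2 or limma-trend, with 2 at an unadjusted p below 0.05. At that unadjusted threshold 2381 of all 17214 genes were higher in letter C and 2610 lower.

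**Figure D3:**
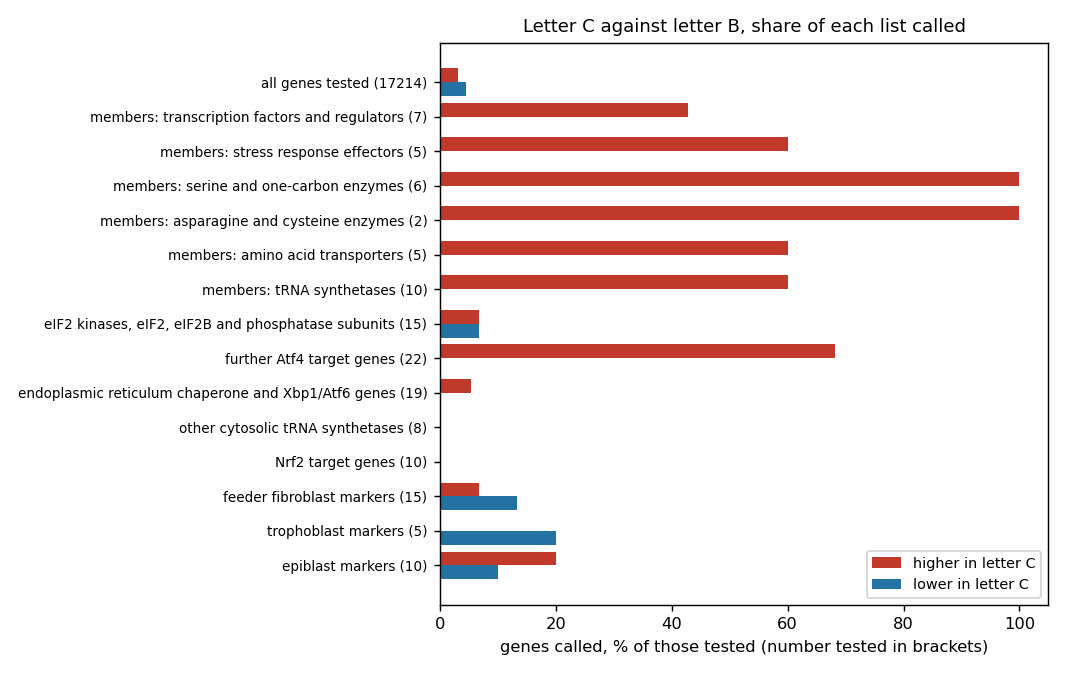
Share of each list called higher (red) or lower (blue) in letter C than in letter B (x axis, percent of the genes tested, with their number in brackets), for all genes, the 6 groups of members, 5 neighbouring lists and 3 marker lists. Groups of members and the further Atf4 targets stand at 42.9 to 100% higher, against 3.10% of all genes, and no group of members has a gene called lower.

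Smaller shares of the cell type marker lists than of the members were called between letters. Single markers (Fgf5 and Eomes) nevertheless differed by more than the members' median of 1.13 on the log2 scale. Of all genes 3.10% were called higher and 4.56% lower. Of 15 feeder fibroblast markers 1 was higher in letter C (Col6a2) and 2 lower (Prrx1 and Fbn1), and their sum was 3374 to 4162 CPM in the B and 3143 to 4748 CPM in the C libraries. Of 10 epiblast markers Otx2 (1.08 ± 0.14, SE) and Sox2 (0.69 ± 0.12) were higher and Fgf5 lower (-1.51 ± 0.16), and their sum was 1613 to 2488 CPM in the B and 1748 to 3442 CPM in the C libraries. Of 10 trophoblast markers 5 were measurable and Eomes was lower (-1.53 ± 0.30), with sums of 54.9 to 116.5 CPM and 26.8 to 58.4 CPM. Their part in the difference between letters was not tested. Among the members in TPM, which is relative to all other RNA in a library, C exceeded B in 3 of 3 lines for 31 of 35.

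The comparison of Dkk1_KO with control asks which members differ where the Wnt antagonist is absent. In Dkk1_KO the stress genes Atf3 and Ppp1r15a were higher, and the transporters Slc7a11 and Slc7a3 and the enzymes Aldh1l2, Cth and Phgdh were lower. These were 2 higher and 5 lower calls among 35 members, or 5.71% and 14.3% of them, against 21.3% of all 18096 genes tested called higher and 23.0% called lower, so neither share was above the background. The median log2 fold change of the members was -0.39, and that of all genes -0.03. The 3 Dkk1_KO libraries lay below all 6 others for 13 members and above them for 4 (27.4% of all genes in each direction), and within their range for the other 18. Because Dkk1_KO also differed in its trophoblast, epiblast and feeder markers (9 of 15 feeder markers lower, sum 2256 to 2298 CPM), the cell types in the culture and a change within them cannot be told apart.

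Slc7a3, a carrier of cationic amino acids, had the lowest level relative to control. It stood at 121.9 and 177.6 CPM in control, 61.9 and 306.5 CPM in IWP2, 123.4 and 198.7 CPM in IWP2_removed and 3.64, 1.97 and 2.41 CPM in Dkk1_KO, which rest on 52, 26 and 34 reads. Its fold change was -5.80 ± 0.67 on the log2 scale (SE, adjusted p = 0.00022 by edgeR). Slc7a11, which brings in cystine in exchange for glutamate, stood at 31.9 and 43.8 CPM in control, 65.1 and 80.8 CPM in IWP2, 39.3 and 57.5 CPM in IWP2_removed and 4.97, 5.92 and 5.38 CPM in Dkk1_KO. No Dkk1_KO library of either transporter came near the lowest of the other 6, and the fold change of Slc7a11 was -2.80 ± 0.22 (adjusted p = 2.70e-05). Aldh1l2 averaged 3.20 ± 0.0745 CPM (SD, n = 3) against 56.2 ± 47.5 CPM (SD, n = 2) in control, and its fold change on the log2 scale was -4.14 ± 0.90 (SE, adjusted p = 0.00606). Cth fell to 10.7 ± 0.703 CPM from 54.3 ± 25.2 CPM, and Phgdh to 113.1 ± 3.10 CPM from 302.4 ± 134.6 CPM (adjusted p = 0.0333 and 0.0337). The calls of Aldh1l2, Cth and Phgdh were lost when control replicate 2, the letter C library, was left out (adjusted p = 0.0616, 0.195 and 0.271) and when the Dkk1_KO libraries were averaged to 1. Of the 9 fits that left out 1 library, the call of Aldh1l2 was lost in 1, that of Cth in 5 and that of Phgdh in 4. Cth and Phgdh were not called without any 1 of the 3 Dkk1_KO libraries (adjusted p = 0.0843 to 0.0930 and 0.0825 to 0.0892), and Cth not without control replicate 1 either (adjusted p = 0.0531). On log2(TPM + 1) limma-trend did not call Aldh1l2 or Cth (adjusted p = 0.0505 and 0.0607), and DESeq2 called Vldlr lower as well (adjusted p = 0.0248).

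Of the 2 members that were higher, Atf3 stood at 15.9 and 13.4 CPM in control, 9.56 and 18.6 CPM in IWP2, 15.4 and 21.2 CPM in IWP2_removed and 46.6, 49.8 and 55.4 CPM in Dkk1_KO. Ppp1r15a stood at 90.1, 88.2 and 92.9 CPM in Dkk1_KO, and no other library exceeded 49.4 CPM. Their log2 fold changes were 1.79 ± 0.29 (SE, adjusted p = 0.00128 by edgeR) and 1.09 ± 0.16 (adjusted p = 0.000863). The other members above all 6 libraries were Cebpb (13.3 to 13.7 CPM against at most 12.9 CPM) and Nupr1 (23.1 to 24.4 CPM against at most 22.8 CPM). Neither was called by edgeR, while DESeq2 called Cebpb (adjusted p = 0.048). In Dkk1_KO 4499 of all 18096 genes were higher and 4885 lower at an unadjusted p below 0.05 by edgeR. None of the 10 tRNA synthetases was, and none of these synthetases was called by edgeR or DESeq2. On log2(TPM + 1) limma-trend called 2 of them lower, Wars (adjusted p = 0.00813) and Eprs (adjusted p = 0.0368). Their median log2 fold change was -0.37.

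**Figure D4:**
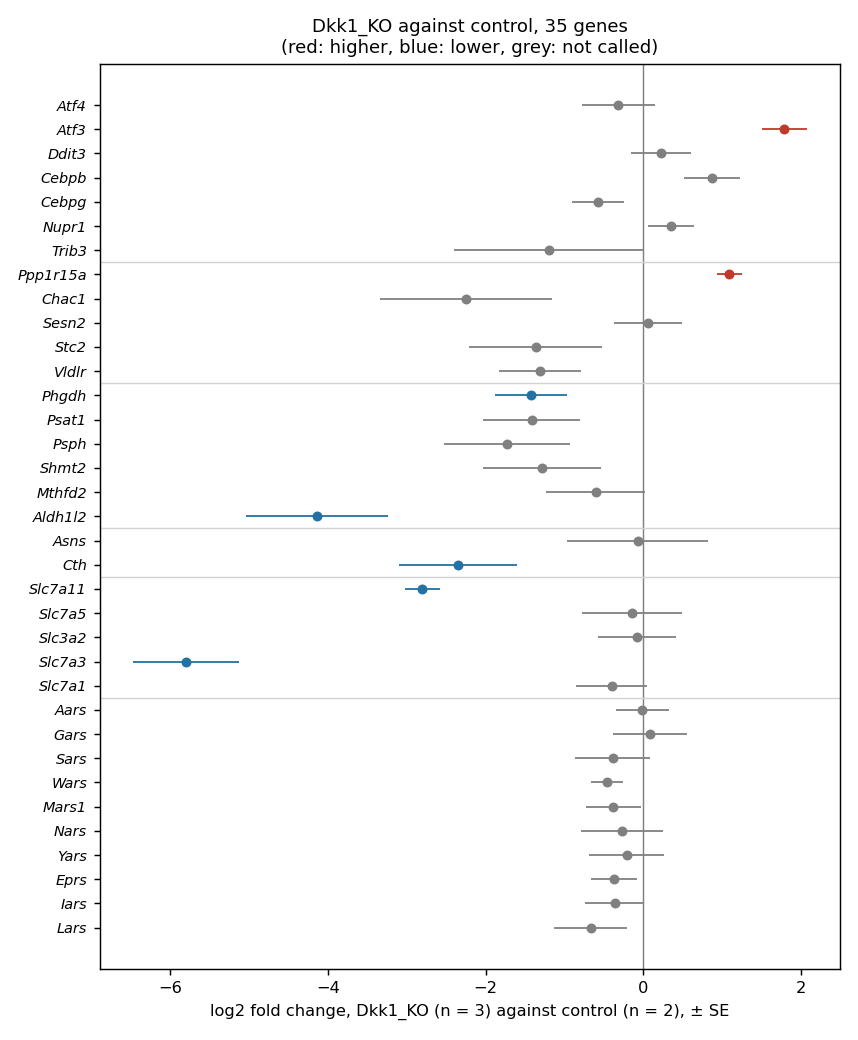
Log2 fold change of Dkk1_KO (n = 3) against control (n = 2) with its SE (x axis), for the 35 members grouped by role (y axis); red marks members called higher, blue those called lower and grey those not called. Atf3 (1.79) and Ppp1r15a (1.09) lie to the right and Slc7a3 (-5.80), Aldh1l2 (-4.14), Slc7a11 (-2.80), Cth (-2.35) and Phgdh (-1.42) to the left, while the tRNA synthetases lie near 0.

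The letter chosen for control bears on this comparison. Between the letter B libraries the median ratio of Dkk1_KO to control was 0.975, with 17 members higher and 18 lower. Between the letter C libraries it was 0.613, with 4 higher and 31 lower. Of the 35 members 18 were lower in both letters, 4 were higher in both, and 13 were higher in B and lower in C. Each ratio is 1 library over 1, and the share of all genes with such ratios was not counted. For the other lists, too, the background was 21.3% of all genes called higher and 23.0% called lower. Further Atf4 target genes gave 3 higher and 7 lower calls of 22 (13.6% and 31.8%). Among them were Gdf15, a stress-induced cytokine (2.20 ± 0.41, SE, log2), Gpt2, an alanine transaminase (-3.01 ± 0.59), and Slc43a1, an amino acid transporter (-2.13 ± 0.21). Of the 10 Nrf2 target genes 5 were higher, such as Srxn1 (0.94 ± 0.12) and Osgin1 (2.68 ± 0.43), and 5 lower, Slc7a11 among them. Of the eIF2 list 1 gene was higher (Eif2s3x, an eIF2 subunit) and 2 lower (Impact and Eif2ak4, the kinase GCN2 that senses uncharged tRNA), and of the endoplasmic reticulum list 2 were higher (Ern1 and Edem1) and 1 lower (Herpud1). These shares, 6.67% and 13.3% of the eIF2 list and 10.5% and 5.26% of the endoplasmic reticulum list, were below those of all genes.

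The comparison of IWP2 with control asks which members differ where Wnt secretion is blocked. No member was called in either direction, against 1.27% of all genes called higher and 0.917% called lower by edgeR, and 2 members were higher at an unadjusted p below 0.05. Over all genes edgeR called 230 higher and 166 lower, and 6 and 6 when the Dkk1_KO libraries were left out of the fit. DESeq2 called 1 member (Slc7a11), with 641 of all 18096 genes higher and 415 lower. By limma-trend no member was called. The median log2 fold change of the members was 0.34, that of all genes 0.007. Slc7a11 came closest, with 72.9 ± 11.1 CPM (SD, n = 2) in IWP2 against 37.9 ± 8.45 CPM (SD, n = 2) in control, and a difference of 0.94 ± 0.23 on the log2 scale (SE, adjusted p = 0.0787 by edgeR). With the replicate number as a block the same gene passed the threshold (0.956 ± 0.159, adjusted p = 0.0299), and over 18 alternatives its adjusted p ranged from 0.00482 to 0.351. Next were Eprs, the synthetase for glutamate and proline (0.84 ± 0.33, adjusted p = 0.247), and Gars, that for glycine (1.06 ± 0.52, adjusted p = 0.368).

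Within letters IWP2 and control stood in opposite order. In letter B 28 of the 35 members were lower in IWP2 than in control, with a median ratio of 0.794. In letter C 33 of the 35 were higher, with a median ratio of 1.55, and 27 members were lower in B and higher in C. Asns, for example, had ratios of 0.620 and 1.68, Cth 0.521 and 2.32 and Atf4 0.771 and 2.18. Of the 6 members that were higher in both letters, Slc7a11 had the most similar ratios (2.04 and 1.84), and Eprs had 1.32 and 2.14. The IWP2 letter C library was the highest of all 9 libraries for 30 of the 35 members, and the IWP2 letter B library the lowest for 19. The share of all genes with these library orders or within-letter ratios was not counted. Each ratio is 1 library over 1, and the IWP2 libraries lay furthest apart over all genes as well. Leaving out the letter B library of IWP2 gave a median log2 fold change of 0.99, and leaving out its letter C library one of -0.834. Without the letter C library of control the median was 0.893.

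**Figure D5:**
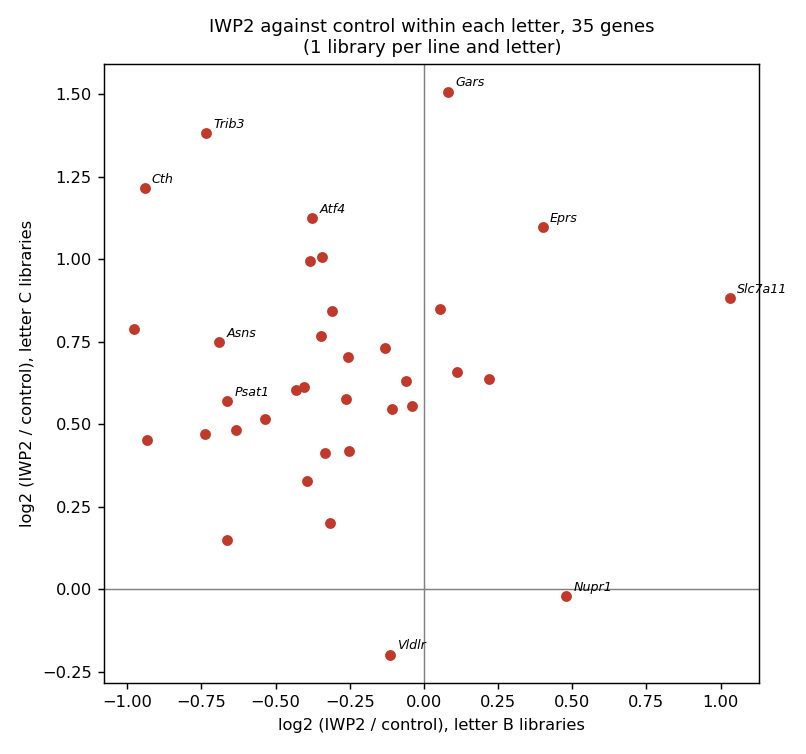
Log2 ratio of IWP2 to control between the letter B libraries (x axis) and between the letter C libraries (y axis), 1 point per member and 1 library per line and letter. Most points (27 of 35) lie in the upper left, lower in IWP2 for letter B and higher for letter C, while Slc7a11 and Eprs are among the 6 that are higher in both.

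IWP2_removed was compared with control to ask what remains once the inhibitor is withdrawn. No member was called, against 0.669% of all genes called higher and 0.586% called lower by edgeR. None had an unadjusted p below 0.05, a threshold at which 1115 of all 18096 genes were higher and 1039 lower. The median log2 fold change of the members was 0.07. The median ratio was 1.04 in letter B and 1.06 in letter C. Of the 35 members 17 were higher and 11 lower in both letters, and the share of all genes was not counted. Cth had ratios of 0.461 and 0.526 and Aldh1l2 of 0.690 and 0.544, while Gars had 1.42 and 1.85, Phgdh 1.60 and 1.48 and Chac1 1.59 and 1.54. None of these differences passed the test, nor did DESeq2 or limma-trend call a member.

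Between IWP2_removed and IWP2 no member was called either, against 0.0387% of all genes called higher and 0.0221% called lower by edgeR. Wars, the synthetase for tryptophan (-0.74 ± 0.23, SE, log2, adjusted p = 0.296), and Slc7a11 (-0.59 ± 0.23, adjusted p = 0.432) were lower at an unadjusted p below 0.05, as were 1016 of all 18096 genes. DESeq2 and limma-trend called no member. The median of the members was -0.28. In letter B 30 of the 35 were higher in IWP2_removed than in IWP2, with a median ratio of 1.28. In letter C 34 were lower, with a median ratio of 0.694. The share of all genes with such ratios was not counted. This comparison and that of IWP2 with control share the 2 IWP2 libraries. Its median was -0.904 without the letter B library of IWP2, 0.946 without its letter C library and -0.81 without the letter C library of IWP2_removed.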

How the data were processed

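RNA sequencing libraries of 4 lines were analysed (2 control, 3 Dkk1_KO, 2 IWP2 and 2 IWP2_removed). The deposited tables give estimated counts and TPM per transcript. Salmon, DESeq2 and edgeR are the tools in the submitters' processing notes, which give no versions. For the transcriptome build: not given in the sources used here. Transcripts were assigned to genes with GENCODE vM21 (GRCm38) by stable identifier, which matched 133399 of 133618 transcripts. The 219 others held 0.117 to 0.161% of the reads. The deposited estimated counts were summed per gene and rounded, and the authors' TPM values were summed per gene. A second gene record with the symbol Ddit3, with reads in 1 library only, was left out. Symbols follow the annotation, except Mars1, which it calls Mars.

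Groups were tested with edgeR 4.0.16 in R 4.3.3 (quasi-likelihood, TMM scaling, filterByExpr, 18096 genes, 1 mean per group over 9 libraries). Letters were tested over the 6 libraries without Dkk1_KO with line as a block (17214 genes). Calls had a Benjamini-Hochberg adjusted p below 0.05 over all genes tested. Levels are TMM-scaled CPM, and the SE is that implied by the test. The fits were tested on simulated data. The members and lists were chosen with earlier results of these data known.

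Values in every library are given for members called in at least 1 comparison, at most 4 per group by smallest adjusted p. Full statistics are given for up to 6 members per comparison with the smallest adjusted p, or the 3 with the smallest p where fewer than 3 were called, and at most 3 called genes per comparison are named from each other list. Members beyond these are given for the completeness of each group. Promoters are those with a TGATGNAA match, the 8 of highest mean TPM. The letter comparison of mitochondrial tRNA synthetases and 1 promoter stretch are not reported here.

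Replicate numbers were checked for pairing over 12107 genes with at least 5 CPM. Deviations of same-numbered libraries correlated at 0.43 between control and IWP2, 0.649 between control and IWP2_removed and 0.661 between IWP2 and IWP2_removed, and at -0.104 to -0.0435 with Dkk1_KO. Numbers and letters match differently in Dkk1_KO, whose same-lettered libraries correlated at -0.0149 to 0.100 with those of the other lines. The numbers were therefore taken to pair the 3 lines other than Dkk1_KO. The main group tests had no term for this pairing, while the blocked alternatives did. No libraries agreed within sampling noise. The chi-square per degree of freedom was 1.75 to 2.20 between Dkk1_KO libraries and 30.3 to 89.4 between those of each other line. The spread between Dkk1_KO libraries entered every group test. Without them IWP2 against control gave 6 genes higher and 6 lower in place of 230 and 166. IWP2_removed against control gave 1 and 0 in place of 121 and 106. The cause of this drop was not tested. Alternatives were DESeq2 1.42.0 size factors or its Wald test, no filter, limma-trend (limma 3.58.1) on log2(TPM + 1), other sets of libraries, blocks by replicate number or letter, and each library left out.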

Additional observations from a re-analysis of the deposited data

How the results depend on the processing

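The number of members higher in letter C, 23 with TMM scaling, was 23 with DESeq2 size factors, 27 with DESeq2 and 31 without the filter. Of all genes 534, 526 and 769 of 17214 were higher in the first 3 settings, and 1451 of 34740 without the filter. The number of members was 9 with limma-trend on TPM and 0 with Dkk1_KO as another line. The TPM scale moved the median of all genes by -0.142 between letters and by -0.135 between Dkk1_KO and control, and turned the calls between letters from 534 higher and 785 lower to 65 higher and 327 lower. The members lower in Dkk1_KO (5) became 13 without the filter, 2 with the Dkk1_KO libraries averaged to 1 and 2 to 10 with 1 library left out, with 2 without control replicate 2, 3 without each Dkk1_KO replicate, 8 without IWP2 replicate 1 and 10 without IWP2 replicate 2. The calls of Slc7a11, Slc7a3, Atf3 and Ppp1r15a held in all 16 alternatives. For IWP2 against control, members called higher (0) became 1 with DESeq2 (641 of 18096 genes higher) and 3 without the filter (685 of 36509). They became 1 with the replicate block (190 of all genes higher) and 1 with a replicate block by letter (234). They became 1 with that block in the 6 libraries without Dkk1_KO (260), a setting added after seeing the data. Each of these blocked fits called Slc7a11, and the replicate block changed no other call among the members named in full. Blocked counts of members lower in Dkk1_KO were 6 by number and 7 by letter, with 3744 and 3826 of all 18096 genes lower. For IWP2_removed against IWP2, members called lower (0) became 2 without the filter, with 212 of all 36509 genes lower. Without IWP2 replicate 2 the fold change of Gars in IWP2 against control turned to -0.178 and that of Cth in IWP2_removed against IWP2 to 0.533. With each other library left out in turn, the fold changes of Gars reached up to 1.71 and those of Cth down to -2.61, both without IWP2 replicate 1. The cause of these changes was not tested. With 1 library left out of a pair, the lone library was assumed in the group tests to vary like the other groups. In the letter tests it added nothing to the difference. The longer motif TGATGNAAT gave 14.3% of members in place of 39.3%.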

Other observations

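Mitochondrial tRNA synthetases, which lie outside the set, gave 1 call in each comparison of an IWP2 line with control. Tars2, the mitochondrial synthetase for threonine, stood at 103.5 and 100.03 CPM in IWP2_removed and at 51.1 and 42.6 CPM in control, which differed by 1.12 ± 0.16 on the log2 scale (SE, adjusted p = 0.0237 by edgeR). The 5 libraries of Dkk1_KO and IWP2 lay between 41.3 and 55.7 CPM, so only the 2 IWP2_removed libraries stood apart. Iars2, that for isoleucine, stood at 139.7 and 164.7 CPM in IWP2, at 95.6 and 95.9 CPM in control and at 164.7 to 165.2 CPM in Dkk1_KO. In IWP2_removed Iars2 stood at 124.5 and 135.3 CPM, also above control, but was not called there by edgeR. Its log2 fold changes against control were 0.67 ± 0.12 in IWP2 (adjusted p = 0.0316 by edgeR) and 0.78 ± 0.11 in Dkk1_KO (adjusted p = 0.000709). The spread in the tests of Tars2 and Iars2 includes that between the close Dkk1_KO libraries.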
